A study of Homo sapiens with 8 samples.

Results

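The genes described here are 10 members of the BCL2 family, the proteins that decide whether the mitochondrial outer membrane is opened during apoptosis: BCL2L1, MCL1, BAX, BAK1, BCL2L11, BID, BIK, PMAIP1, BMF and BBC3. They were found by symbol, taking each probe set whose platform annotation names exactly 1 gene and that gene a member. That gave 27 probe sets for 9 of the 10 genes, out of 41091 probe sets with 1 symbol and 54613 in all. BBC3, which encodes PUMA, had no such probe set, and no level is given for it. Of the 27 probe sets, 25 passed a filter on low signal, including the brightest of each of the 9 genes, and that brightest probe set stands for the gene below. The study exposed HCT116 cells, an established human colorectal carcinoma line, for 10 h to largazole at 20 nM, SAHA at 2 µM, FK228 at 20 nM or vehicle, with 2 Affymetrix U133 2.0 arrays in each of the 4 groups. All 3 compounds inhibit histone deacetylases: largazole is a cyclic depsipeptide with a thioester, SAHA (vorinostat) is a hydroxamic acid, and FK228 (romidepsin) is a bicyclic depsipeptide with a disulfide. HCT116 is a single line from a single tumour, and every group was grown in the same medium with serum.

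BCL2L1, known as BCL-XL, and MCL1 are survival proteins: they hold back cell death by binding the pore-forming proteins and the BH3-only proteins. BAX and BAK1 form the pores through which cytochrome c leaves the mitochondrion. The BH3-only proteins, here BIM (BCL2L11), BID, BIK, NOXA (PMAIP1), BMF and PUMA (BBC3), carry the stress signal, either by neutralising survival proteins or by activating BAX and BAK1 directly. Histone deacetylase inhibitors are known to kill carcinoma cells largely through this mitochondrial route.

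The members that changed with all 3 compounds and have a transcription start in the RefSeq promoter table (build GRCh38.p14) are BCL2L11, BAK1, BCL2L1, BID and BAX, and the 250 bases before their first listed start are shown because these are the genes the results turn on. Of the 10 members, 8 matched an entry, all but MCL1 and BIK. Capitals mark 4 short motifs, searched on both strands: GGGCGG (the GC box, bound by SP1-type factors), CACGTG (the E-box, bound by MYC and USF factors), CCAAT (the CCAAT box, bound by NF-Y) and GTAAACA (a forkhead core, bound by FOXO factors). No motif in these 5 windows overlaps another.
BCL2L11: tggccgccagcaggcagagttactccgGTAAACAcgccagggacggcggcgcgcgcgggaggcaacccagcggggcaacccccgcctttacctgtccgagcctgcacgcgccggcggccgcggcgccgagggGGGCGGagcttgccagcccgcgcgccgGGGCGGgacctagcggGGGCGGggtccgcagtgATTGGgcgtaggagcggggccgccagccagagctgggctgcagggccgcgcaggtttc
BAK1: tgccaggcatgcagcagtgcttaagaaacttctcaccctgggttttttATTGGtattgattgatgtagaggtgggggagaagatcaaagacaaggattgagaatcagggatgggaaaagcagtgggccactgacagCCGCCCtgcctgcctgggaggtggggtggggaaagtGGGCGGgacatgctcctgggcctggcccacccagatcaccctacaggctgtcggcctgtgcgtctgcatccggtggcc
BCL2L1: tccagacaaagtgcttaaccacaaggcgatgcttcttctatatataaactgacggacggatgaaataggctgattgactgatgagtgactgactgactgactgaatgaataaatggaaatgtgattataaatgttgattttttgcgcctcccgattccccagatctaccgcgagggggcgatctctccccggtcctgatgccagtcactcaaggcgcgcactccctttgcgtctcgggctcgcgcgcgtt
BID: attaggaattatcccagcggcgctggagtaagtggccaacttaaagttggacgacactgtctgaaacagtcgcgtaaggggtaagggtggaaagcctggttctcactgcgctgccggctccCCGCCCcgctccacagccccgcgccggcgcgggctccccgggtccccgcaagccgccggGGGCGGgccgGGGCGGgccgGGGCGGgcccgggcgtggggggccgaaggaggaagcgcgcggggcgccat
BAX: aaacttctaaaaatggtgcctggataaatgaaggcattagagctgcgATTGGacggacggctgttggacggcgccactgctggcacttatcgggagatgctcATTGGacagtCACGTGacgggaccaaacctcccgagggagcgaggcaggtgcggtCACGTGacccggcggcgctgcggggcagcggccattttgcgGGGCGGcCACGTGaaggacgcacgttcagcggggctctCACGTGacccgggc
These windows lie at chr2:111120664-111120913 (plus strand) for BCL2L11, chr6:33580277-33580526 (minus strand) for BAK1, chr20:31723964-31724213 (minus strand) for BCL2L1, chr22:17774470-17774719 (minus strand) for BID and chr19:48954625-48954874 (plus strand) for BAX. BCL2L1 has 2 listed starts and BID has 5, of which the first is printed. The BCL2L11 window holds 3 GC boxes, 1 CCAAT box and 1 forkhead core. The BAK1 window holds 2 GC boxes and 1 CCAAT box, the BID window 4 GC boxes, and the BAX window 4 E-boxes, 2 CCAAT boxes and 1 GC box. None of these letters occurs in the BCL2L1 window printed, nor in the window of its other start. Of 35116 promoter windows of the same length, 42.6% hold a GC box, 32% a CCAAT box, 6.34% an E-box and 2.98% a forkhead core. A match describes the sequence only.

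Array medians lay between 4.47 and 4.51 on the log2 scale, and Pearson's r between the 2 arrays of a group was at least 0.995 across probe sets, which are not independent replicates. Of 10 epithelial markers, EPCAM, KRT8, KRT18 and KRT19 reached a log2 level above 12, while the intestinal markers CDH17 and LGALS4 stayed under 4.49, the filter level, on average in every group. KRT20 and VIL1 were also low, with highest group means of 4.58 and 4.68. CDH1 averaged 10.14 with largazole, 10.19 with SAHA and 10.10 with FK228, against 9.41 with vehicle. CLDN4 went the other way, at 7.75, 7.59 and 6.73 in that order, against 8.39. For each list, unlogged levels were summed on each array, and the sum is given as its log2. The epithelial list summed to 14.59 to 14.60 with largazole and 14.61 to 14.63 with SAHA. It summed to 14.47 to 14.48 with FK228 and 14.47 to 14.50 with vehicle. Leukocyte and blood markers summed to 7.56 to 7.61 with largazole, 7.57 to 7.64 with SAHA, 7.60 to 7.62 with FK228 and 7.55 to 7.59 with vehicle, with 5 of 8 under the filter level in each group and a PTPRC group mean of no more than 2.65. Fibroblast and endothelial markers summed to 8.84 to 9.04 with largazole, 8.47 to 8.66 with SAHA, 8.46 to 8.58 with FK228 and 8.21 to 8.23 with vehicle. Only COL1A1 of that list reached 6.87, the upper quartile of all values, while COL1A2, COL3A1 and CDH5 were under the filter level in every group. The part of these lists in the results was not tested.

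The first question is which family members each inhibitor changed against vehicle. Differences were tested with limma over all 8 arrays, and a gene was called at a Benjamini-Hochberg adjusted p under 0.05 over all 28985 tested probe sets. MCL1, BAK1 and BCL2L11 rose and BCL2L1, BAX and BID fell with each of the 3 compounds, BIK fell with largazole and SAHA, and PMAIP1 and BMF were not called with any. With largazole, 3 of the 9 genes rose and 4 fell, where 21.9% of all 13381 tested genes rose and 23.2% fell. With SAHA, 3 rose and 4 fell, against 22.1% and 25.2% of all genes. With FK228, 3 rose and 3 fell, against 25.7% and 27.1%. The 3 comparisons share their vehicle arrays, so their counts are not independent of each other. Nothing in the labels tells whether the 2 arrays of a group came from separate cultures, and the p-values therefore reflect only the spread between arrays, which may be technical. An RNA level per sample also cannot tell fewer cells carrying a transcript from less transcript in each cell.

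**Figure D1:**
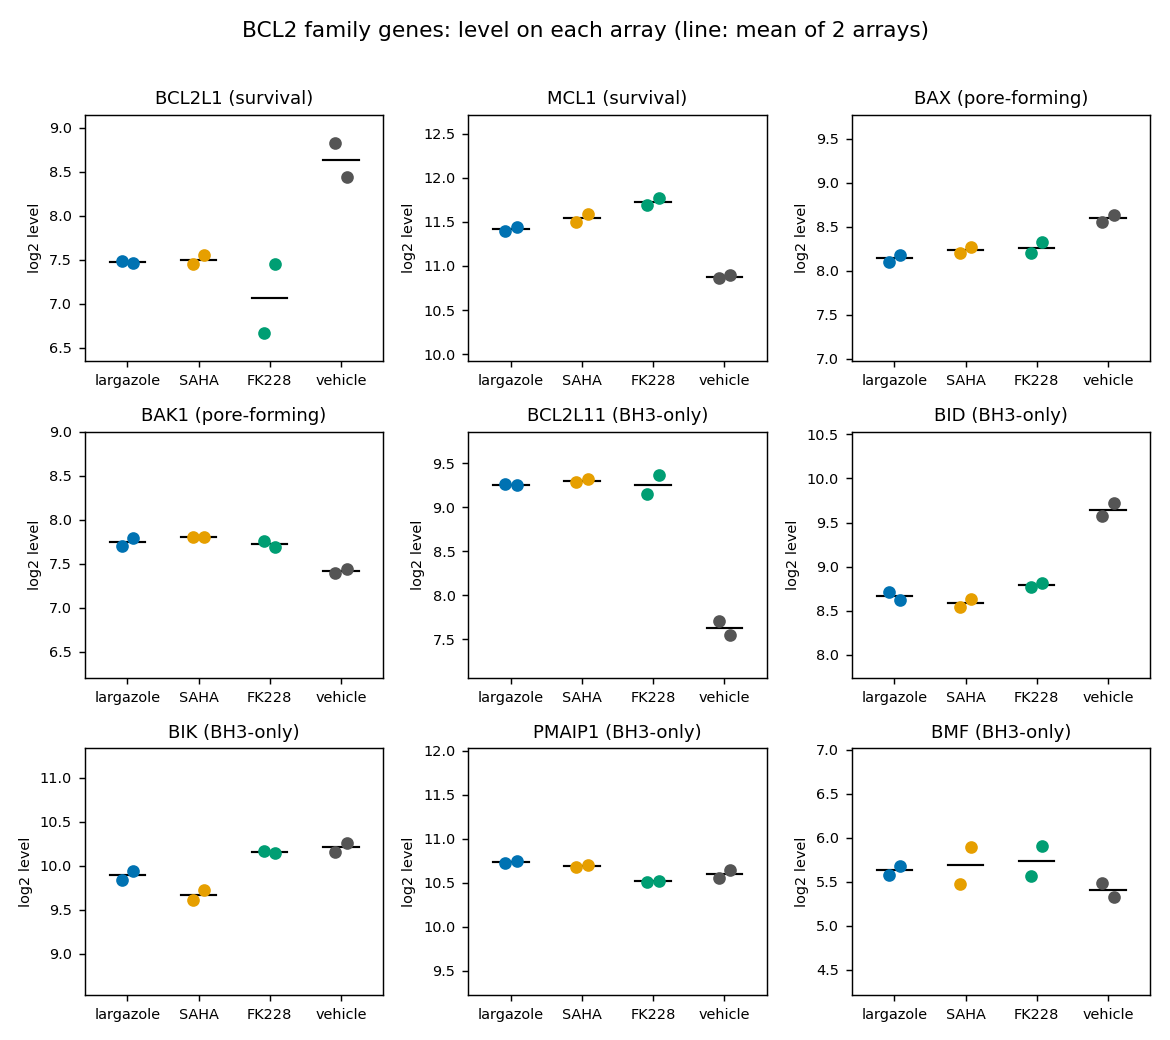
Log2 level of the brightest probe set of each gene (vertical axis, each panel spanning the same 2.8 log2 units) on the arrays of the largazole, SAHA, FK228 and vehicle groups (horizontal axis). Points are arrays and lines are means of 2 arrays: the vehicle arrays of BCL2L1, BID and BAX lie above all treated arrays, and those of MCL1, BCL2L11 and BAK1 lie below them.

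Of the survival genes, BCL2L1 had log2 levels of 7.49 and 7.46 with largazole, 7.45 and 7.55 with SAHA, and 6.67 and 7.46 with FK228, against 8.82 and 8.44 with vehicle. All 6 treated arrays lay below both vehicle arrays, and the lowest of them, FK228 replicate 1, stood apart from its partner. The log2 change was -1.15 ± 0.24 with largazole (SE, n = 2 against 2, limma adjusted p = 0.00590), -1.13 ± 0.24 with SAHA (adjusted p = 0.00595) and -1.57 ± 0.24 with FK228 (adjusted p = 0.000966). These correspond to levels 2.23-fold, 2.19-fold and 2.96-fold lower than with vehicle. Without FK228 replicate 1 the FK228 change was -1.17, and without FK228 replicate 2 it was -1.96. Averaging all 4 probe sets of BCL2L1 gave -0.64 with largazole, -0.57 with SAHA and -0.81 with FK228, each called. That average includes 1 probe set that passed the filter only through the vehicle arrays. It also includes 1 that lay under the filter level on every array, so the average adds no support.

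MCL1 moved the opposite way. Its levels were 11.40 and 11.44 with largazole, 11.50 and 11.59 with SAHA, and 11.69 and 11.77 with FK228, against 10.86 and 10.90 with vehicle. No array of any group overlapped another group, and the order was FK228, SAHA, largazole and vehicle. MCL1 rose by 0.54 ± 0.08 with largazole (SE, n = 2 against 2, limma adjusted p = 0.00141), by 0.66 ± 0.08 with SAHA (adjusted p = 0.000458) and by 0.85 ± 0.08 with FK228 (adjusted p = 9.55e-05), which is 1.46-fold, 1.58-fold and 1.80-fold. Of its 5 tested probe sets, 4 rose with largazole and 5 with SAHA and with FK228, the largest change being 0.99 with SAHA.

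The pore-forming pair also split. BAX had levels of 8.11 and 8.18 with largazole, 8.20 and 8.27 with SAHA, and 8.21 and 8.32 with FK228, against 8.56 and 8.64 with vehicle, so that every treated array lay below the vehicle arrays. Its log2 change was -0.45 ± 0.09 with largazole (limma adjusted p = 0.00438), -0.36 ± 0.09 with SAHA (adjusted p = 0.0117) and -0.33 ± 0.09 with FK228 (adjusted p = 0.0145), a fall of 1.26-fold to 1.37-fold. The call with SAHA ended without SAHA replicate 1 (adjusted p = 0.0593) and, separately, without vehicle replicate 2 (adjusted p = 0.0693), and that with FK228 ended without FK228 replicate 1 (adjusted p = 0.0823) and, separately, without vehicle replicate 2 (adjusted p = 0.0794). The other BAX probe set fell with largazole (-0.40) and FK228 (-0.32), and was at -0.26 with SAHA (adjusted p = 0.0637).

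BAK1 is read by a single probe set, at 7.70 and 7.79 with largazole, 7.80 and 7.80 with SAHA, and 7.76 and 7.69 with FK228, against 7.40 and 7.44 with vehicle. Every treated array lay above both vehicle arrays. It rose by 0.33 ± 0.08 with largazole (limma adjusted p = 0.0130), 0.38 ± 0.08 with SAHA (adjusted p = 0.00601) and 0.31 ± 0.08 with FK228 (adjusted p = 0.0144). The largazole call was lost when largazole replicate 2 was left out (adjusted p = 0.0930) and likewise for vehicle replicate 1 (adjusted p = 0.0660), and the FK228 call without FK228 replicate 1 (adjusted p = 0.0729) and, separately, without vehicle replicate 1 (adjusted p = 0.0717). For BAX and BAK1, changes of this size were common. A larger absolute change than that of BAX was seen in 32.7% of all genes with largazole, 42.5% with SAHA and 50.1% with FK228. For BAK1 the shares were 43.3%, 40.2% and 52.7% in that order.

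Among the BH3-only genes, BCL2L11, whose product BIM binds every survival protein of the family, rose, and on the brightest probe sets its change was the largest of them. On the average over every probe set of each gene, BID changed more, at -1.47 with largazole, -1.53 with SAHA and -1.49 with FK228, beside 1.28, 1.41 and 1.17 for BCL2L11, and it was also larger without _x_at and _s_at probe sets. BCL2L11 levels were 9.26 and 9.25 with largazole, 9.28 and 9.32 with SAHA, and 9.15 and 9.37 with FK228, against 7.70 and 7.55 with vehicle. The treated arrays stood far above the vehicle arrays, and the arrays of neighbouring compounds in the order of means overlapped. BCL2L11 rose by 1.63 ± 0.10 with largazole (limma adjusted p = 2.45e-05), 1.67 ± 0.10 with SAHA (adjusted p = 2.00e-05) and 1.63 ± 0.10 with FK228 (adjusted p = 1.24e-05), or 3.09-fold to 3.19-fold. Its 3 changes differed by 0.04 at most, and 2.39% of all genes had a larger absolute change with largazole, 2.42% with SAHA and 4.28% with FK228.

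The 7 probe sets of BCL2L11 did not move equally. All 7 rose with largazole and 6 with SAHA and with FK228. The dimmest of them had vehicle arrays at 3.94 and 4.20 and passed the filter only through the treated arrays, so it had to differ. The largest rise was 1.85 with largazole, 1.92 with SAHA and 1.85 with FK228, on a probe set with vehicle arrays at 4.54 and 4.04. The lower of these is under the filter level. The filter asked for 2 arrays, so this probe set also passed only through the treated arrays, and its rise adds no support. The third brightest probe set was at 7.49 and 7.53 with largazole, 7.57 and 8.04 with SAHA, and 7.14 and 6.98 with FK228, against 6.59 and 6.57 with vehicle. It rose by 0.93 with largazole, 1.22 with SAHA and 0.48 with FK228, and the largazole level was 0.45 above the FK228 level (adjusted p = 0.105). The fifth brightest changed least, by 0.33 with largazole (adjusted p = 0.0389), and was at 0.21 with SAHA (adjusted p = 0.147) and 0.23 with FK228 (adjusted p = 0.111). The sources used here do not tell which BIM isoforms each probe set reads.

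BID, which links death receptors to the mitochondrion after cleavage by caspase-8, fell. It was at 8.71 and 8.61 with largazole, 8.54 and 8.63 with SAHA, and 8.76 and 8.82 with FK228, against 9.57 and 9.72 with vehicle. Every treated array was lower than both vehicle arrays, and the FK228 arrays were the highest of the treated ones. Its log2 change was -0.98 ± 0.09 with largazole (limma adjusted p = 0.000132), -1.06 ± 0.09 with SAHA (adjusted p = 8.27e-05) and -0.85 ± 0.09 with FK228 (adjusted p = 0.000157). The remaining 2 probe sets fell further, with changes of -1.73 and -1.70 with largazole, -1.79 and -1.74 with SAHA, and -1.93 and -1.67 with FK228, so the size of the BID fall depends on the probe set read. The brighter of these was lowest with FK228 (6.70 and 6.74) and next with SAHA (6.88 and 6.84), then with largazole (6.93 and 6.92), against 8.60 and 8.71 with vehicle.

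BIK, which acts at the endoplasmic reticulum, was at 9.84 and 9.94 with largazole, 9.60 and 9.72 with SAHA, and 10.17 and 10.14 with FK228, against 10.16 and 10.26 with vehicle. The largazole and SAHA arrays lay below the vehicle arrays, whereas the FK228 arrays overlapped them. BIK fell by 0.54 ± 0.09 with SAHA (limma adjusted p = 0.00177) and by 0.32 ± 0.09 with largazole (adjusted p = 0.0229), and its change with FK228 was -0.05 ± 0.09 (adjusted p = 0.646). The largazole call ended with no filter on low values (adjusted p = 0.0657) and without largazole replicate 1 (adjusted p = 0.135), largazole replicate 2 (adjusted p = 0.0538) and, of the vehicle arrays, replicate 2 (adjusted p = 0.121). The changes of BIK spanned 0.49 between compounds and those of BCL2L1 0.44, a BCL2L1 span that turns on the FK228 arrays that stood apart.

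PMAIP1, whose product NOXA binds MCL1 selectively and which p53 is known to induce, was at 10.72 and 10.74 with largazole, 10.68 and 10.70 with SAHA, and 10.51 and 10.52 with FK228, against 10.55 and 10.65 with vehicle. The largazole and SAHA arrays were above the vehicle arrays and the FK228 arrays below them, by small margins. The log2 change was 0.13 ± 0.08 with largazole (limma adjusted p = 0.223), 0.09 ± 0.08 with SAHA (adjusted p = 0.393) and -0.08 ± 0.08 with FK228 (adjusted p = 0.427). Its other probe set was at 0.36, 0.21 and -0.23 for largazole, SAHA and FK228, also not called (adjusted p from 0.137 to 0.365).

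BMF, a BH3-only gene whose product is held on the cytoskeleton, was at 5.57 and 5.68 with largazole, 5.48 and 5.90 with SAHA, and 5.56 and 5.90 with FK228, against 5.49 and 5.32 with vehicle. The lower SAHA array lay within the range of the vehicle arrays, and the SAHA and FK228 arrays were wider apart than the largazole arrays. The log2 change was 0.22 with largazole (95% confidence interval -0.16 to 0.61, limma adjusted p = 0.329), 0.28 with SAHA (-0.10 to 0.66, adjusted p = 0.209) and 0.33 with FK228 (-0.05 to 0.71, adjusted p = 0.138). Single arrays moved these values: leaving out SAHA replicate 1 gave a SAHA change of 0.49 and leaving out its partner gave 0.07, and the FK228 change was 0.50 without FK228 replicate 1 and 0.16 without FK228 replicate 2, none called.

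**Figure D2:**
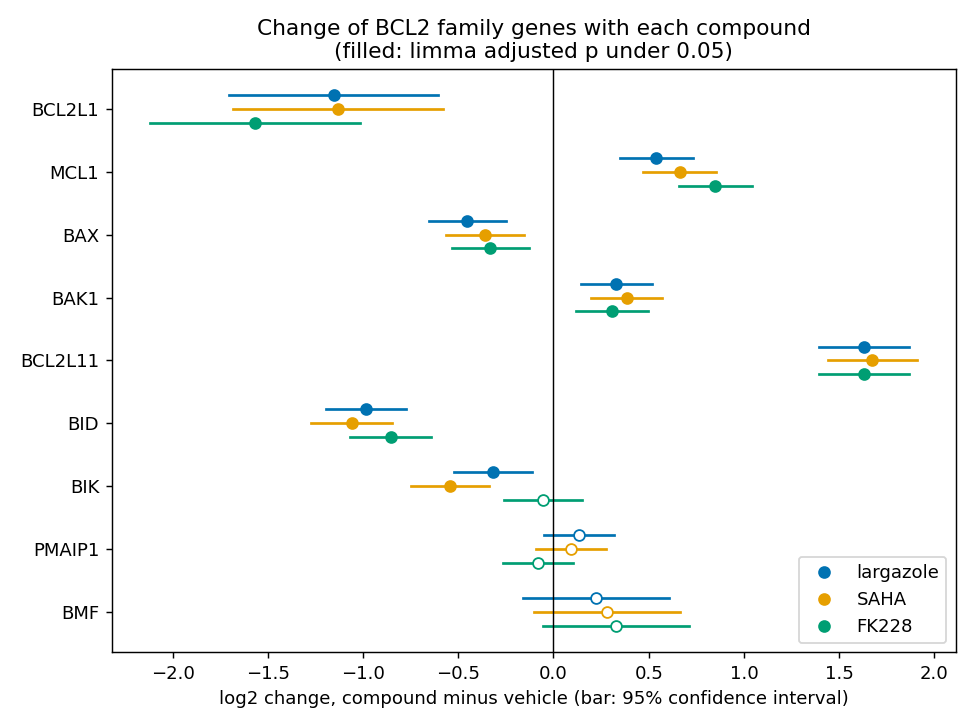
Log2 change of each gene, compound minus vehicle (horizontal axis), with its 95% confidence interval as a bar and largazole, SAHA and FK228 as colours. Filled points passed an adjusted p under 0.05: BCL2L11 lies at 1.63 to 1.67 for all 3 compounds, BCL2L1 and BID lie left of 0, and the points of PMAIP1 and BMF are open.

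Counted by probe set, 20 of the 25 tested probe sets of these genes were called with largazole (12 rose, 8 fell), where 40.7% of all tested probe sets were called. With SAHA, 19 were called (12 rose, 7 fell), against 43.7% of all, and with FK228, 19 (12 rose, 7 fell), against 49.0%. Probe sets of 1 gene share its transcript and are not independent. A BCL2L1 probe set passed the filter only through the vehicle arrays, and 2 BCL2L11 probe sets only through the treated arrays. These counts therefore describe and support nothing. For every gene with several tested probe sets, they had the same sign with a given compound, and those that missed the threshold were in BCL2L1, MCL1, BAX, BCL2L11 and PMAIP1. For BCL2L1, 2 of 3 tested probe sets fell with each compound, and the remaining 1 was at -0.27 with largazole, -0.26 with SAHA and -0.55 with FK228 (adjusted p = 0.0541 with FK228). One of the 2 that fell passed the filter only through the vehicle arrays, at 4.96 and 5.13, while its 6 treated arrays lay between 3.98 and 4.46, so its fall adds nothing to that of the brightest.

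**Figure D3:**
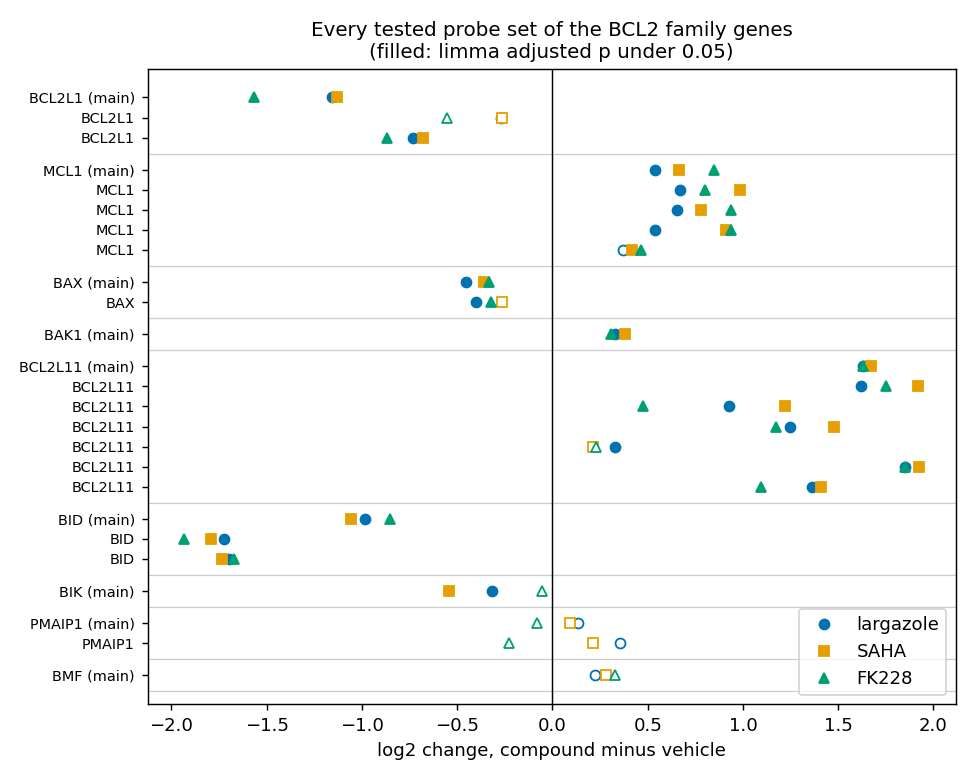
Log2 change, compound minus vehicle (horizontal axis), of each of the 25 tested probe sets, grouped by gene with the brightest marked as main. Filled symbols passed an adjusted p under 0.05: the 7 BCL2L11 probe sets spread from 0.21 to 1.92, and the other 2 BID probe sets lie left of the main BID probe set.

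The second question is whether the 2 depsipeptides, given at the same dose for the same time, differed at these genes. None of the 9 genes was called between largazole and FK228 by limma, where 9.07% of all genes were, and 3 had an unadjusted p under 0.05. Of the 25 probe sets, 0 were called, against 8.23% called among all probe sets, and 9 had an unadjusted p under 0.05. The share of all genes or probe sets with an unadjusted p under 0.05 was not counted. The 3 genes and 9 probe sets at that threshold are therefore only described. MCL1 was at 11.42 on average with largazole and 11.73 with FK228, a difference of -0.31 (95% confidence interval -0.50 to -0.12, adjusted p = 0.0611). BIK was at 9.89 with largazole and 10.15 with FK228, a difference of -0.26 (-0.47 to -0.06, adjusted p = 0.113). PMAIP1 was at 10.73 with largazole and 10.51 with FK228, a difference of 0.22 (0.03 to 0.40, adjusted p = 0.137). On the other PMAIP1 probe set the difference was larger, at 0.59 (0.19 to 0.98, adjusted p = 0.0802), and also not called. MCL1, BIK and PMAIP1 are the 3 genes with an unadjusted p under 0.05. All 3 were called under a filter at the upper quartile of all values (MCL1 adjusted p = 0.0169). They were also called with an intensity trend and robust prior in limma (MCL1 adjusted p = 0.00480). Calls rose over all probe sets too: 3279 of 15013 under that filter and 3741 of 28985 with the trend, against 2385 of 28985 in the main fit. MCL1 alone was called at equal ribosomal protein medians (adjusted p = 0.0450) and with replicate number as a block in the fit. PMAIP1 alone was called when all probe sets of a gene were averaged.

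For the other 6 genes the intervals of the difference, largazole minus FK228, contained 0. They ran from -0.24 to 0.23 for BCL2L11, -0.16 to 0.21 for BAK1, -0.32 to 0.08 for BAX, -0.34 to 0.08 for BID, -0.49 to 0.28 for BMF and -0.14 to 0.96 for BCL2L1. The BCL2L1 interval is the widest, and its difference was 0.41 (adjusted p = 0.320). It was 0.02 without FK228 replicate 1 and 0.81 without FK228 replicate 2, and was not called in either case. SAHA was given at 2 µM, a higher dose than that of the depsipeptides, and is set beside them without a test. With SAHA, BCL2L1 and BCL2L11 were within 0.05 of their largazole levels on the brightest probe sets, while MCL1 lay between the largazole and FK228 levels and BIK below both. Other probe sets differed: the second brightest of MCL1 was highest with SAHA (10.04, beside 9.73 with largazole and 9.85 with FK228), and the second brightest of BCL2L11 averaged 8.70 with SAHA, beside 8.40 with largazole.

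**Figure D4:**
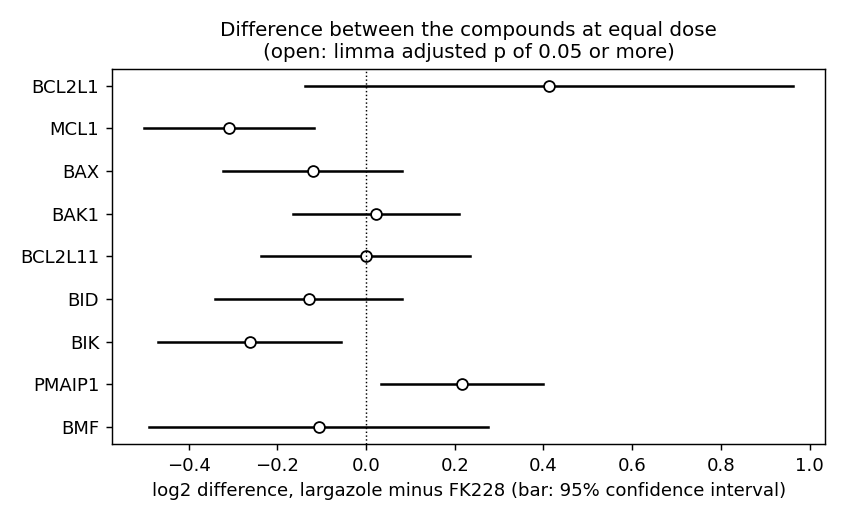
Log2 difference, largazole minus FK228 (horizontal axis), of each of the 9 genes, with its 95% confidence interval. All points are open because no adjusted p was under 0.05: the intervals of MCL1 and BIK lie below 0, that of PMAIP1 above 0, and that of BCL2L1 reaches 0.96.

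Beyond these members, 14 more BCL2 family genes were tested. With largazole 2 rose and 4 fell, with SAHA 2 rose and 4 fell, and with FK228 3 rose and 5 fell, beside the shares of all genes given above (21.9% and 23.2%, 22.1% and 25.2%, 25.7% and 27.1%). Their median log2 change was 0.07, 0.07 and 0.12 in that order, beside 0.0016, -0.02 and 0.01 for all genes. BCL2L2, the survival gene of BCL-W, fell with each compound, by 1.33 with largazole, 1.16 with SAHA and 1.44 with FK228. HRK, a BH3-only gene, changed by -1.08, -0.88 and -1.08, and BOK, a BAX-like gene, changed by -0.87, -1.08 and -1.12, called with each. BNIP3L, a mitophagy receptor related to the family, rose by 0.48, 0.62 and 0.54. BNIP3, its close relative, rose with largazole (0.35), BCL2L12 with SAHA (0.43) and FK228 (0.54), and the BH3-only gene BAD with FK228 (0.51). BCL2 itself was at 0.06, 0.14 and 0.22 with largazole, SAHA and FK228 and was not called. None of the 14 was called between largazole and FK228, beside 9.07% of all genes.

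Of 18 genes that act downstream of the mitochondrion, 4 rose and 5 fell with largazole, 4 rose and 6 fell with SAHA, and 3 rose and 6 fell with FK228, where 21.9% to 25.7% of all genes rose and 23.2% to 27.1% fell. Their medians were -0.03, -0.05 and -0.05. DIABLO, which encodes the IAP antagonist SMAC, rose by 0.60 with largazole, 0.70 with SAHA and 0.93 with FK228, and HTRA2, a mitochondrial protease with a like role, by 0.75, 0.69 and 0.82. XIAP, the caspase inhibitor that these antagonise, fell by 0.59, 0.75 and 1.32. The executioner caspase CASP6 fell by 0.67, 0.78 and 0.91 and the nuclease ENDOG by 0.56, 0.64 and 0.44. BIRC2, an inhibitor of apoptosis, rose with largazole (0.31) and SAHA (0.31), and the initiator caspase CASP9 rose with FK228 (0.54) and SAHA (0.26). Between largazole and FK228, 2 of the 18 were called, beside 9.07% of all genes: XIAP was at 8.62 with largazole and 7.88 with FK228 (difference 0.73, limma adjusted p = 0.0353), and CASP9 at 8.34 with largazole and 8.89 with FK228 (difference -0.55, adjusted p = 0.0127).

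Among 30 genes that regulate BCL2 proteins or their genes, 9 rose and 2 fell with largazole, 10 rose and 3 fell with SAHA, and 15 rose and 4 fell with FK228, where 21.9%, 22.1% and 25.7% of all genes rose and 23.2%, 25.2% and 27.1% fell. Their medians were 0.14, 0.16 and 0.26. The transcription factor STAT3, a known inducer of MCL1 and BCL2L1, rose by 1.62 with largazole, 1.61 with SAHA and 1.76 with FK228. FOXO1, of a family that induces BCL2L11, was among the 3 largest rises with largazole (0.93) and SAHA (1.07), and DYNLL2, the dynein light chain that holds BMF on the actin cytoskeleton, likewise (0.94 and 0.97). With FK228 the largest rises after STAT3 were those of DDIT3, the stress factor CHOP (1.31), and of PIM2, a kinase that phosphorylates BAD (1.23). TRIB3, a pseudokinase gene that CHOP is known to induce, fell by 1.16 with largazole, 1.22 with SAHA and 1.31 with FK228, and BCLAF1, a BCL2-associated RNA and transcription factor, by 0.64, 0.69 and 1.02. The chaperone BAG6 with SAHA (-0.50) and the hypoxia factor HIF1A with FK228 (-0.52) completed the 3 largest falls. Between largazole and FK228, 6 of the 30 were called, beside 9.07% of all genes: FOXO3 was higher with largazole by 0.51, and DDIT3 (-0.74), PIM3 (-0.50), PIM1 (-0.48), FBXW7 (-0.46) and BAG5 (-0.37) were lower. FOXO3, PIM1, PIM3, FBXW7 and BAG5 were picked for naming after their values were seen.

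**Figure D5:**
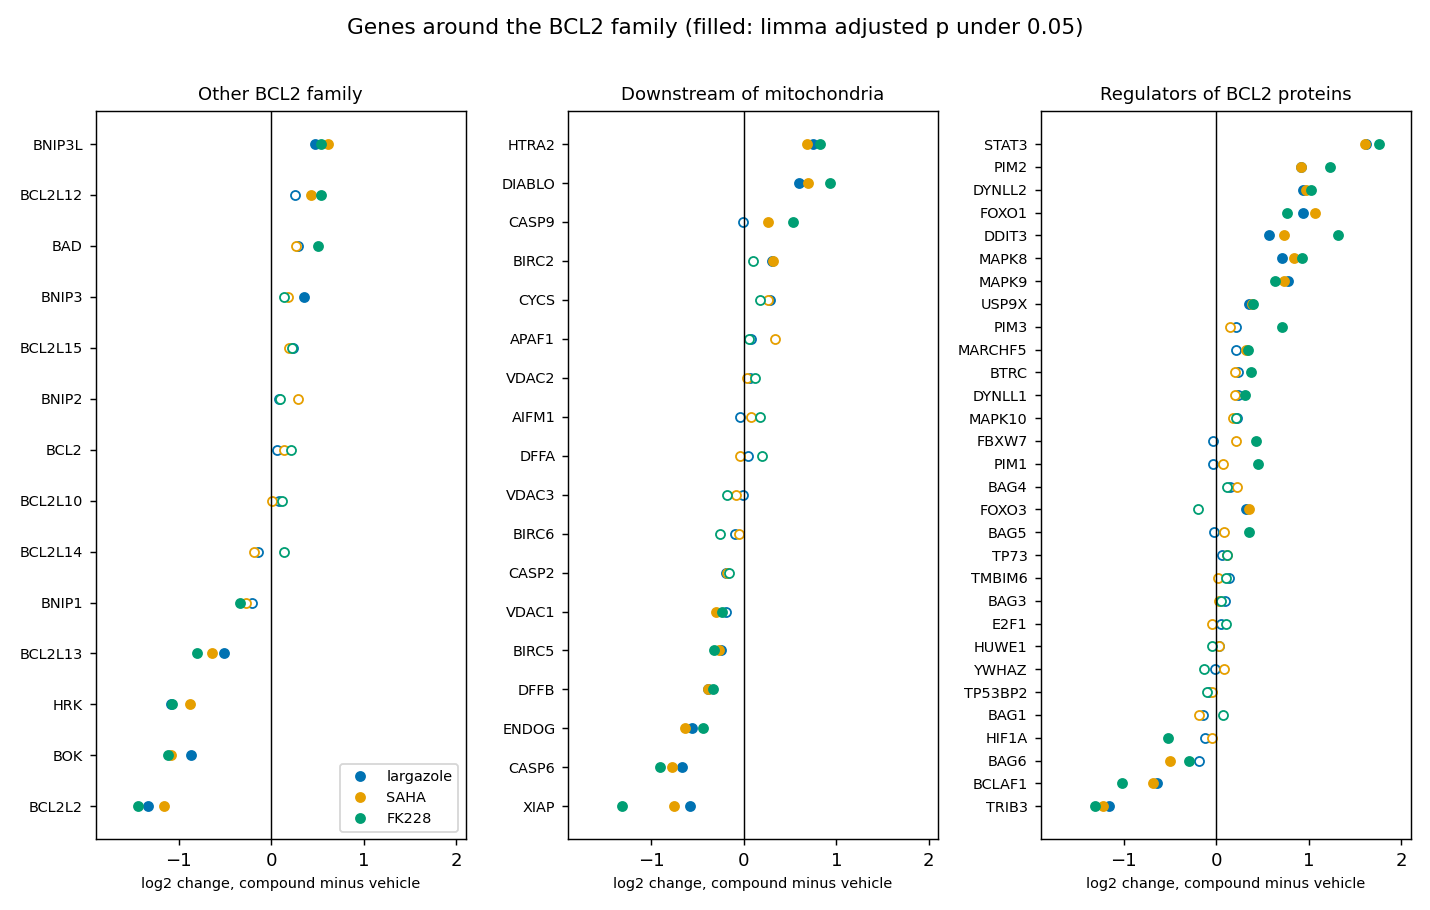
Log2 change, compound minus vehicle (horizontal axis), of the tested genes of 3 lists around the family, with largazole, SAHA and FK228 as colours and filled points for an adjusted p under 0.05. BCL2L2, XIAP and TRIB3 lie lowest in their lists and BNIP3L, HTRA2 and STAT3 highest, by the mean of the 3 changes.

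Likeness of patterns was measured as the root mean square difference between log2 levels centred over the 8 arrays, and it describes these arrays only. The genes nearest to BCL2L1 were SLC35G1 (0.12), VPS54 (0.15) and SH3RF2 (0.16), and those nearest to MCL1 were EIF2B2 (0.021), RMDN3 (0.027) and PITPNA (0.037). NBEA (0.059), ARG2 (0.061) and IL1RAP (0.063) lay nearest to BCL2L11. SPAG7 (0.025), DRC8 (0.048) and ANP32B (0.054) were nearest to BID, BRF2 (0.025), TMEM126A (0.029) and ITGB5 (0.030) to BAX, and RAP1GDS1 (0.032), SND1 (0.034) and MIB1 (0.034) to BAK1. BIK was nearest to QTRT1 (0.046), NFATC1 (0.051) and PUS1 (0.062), and like BIK these had their lowest mean with SAHA.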

How the data were processed

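RNA of HCT116 cells was hybridised to Affymetrix U133 2.0 arrays, 2 per group. The deposited values are log2 probe set levels of the authors. In the submitters' processing notes, affy, RMA and limma are listed without version, role or order, and nothing more is known here of how the values were made. Probe sets were named by the platform annotation, and promoters come from RefSeq (GRCh38.p14), used only for sequence.

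The filter asked for at least 2 of the 8 arrays at or above 4.49, the overall median, which left 28985 for 13381 genes. The fit used limma 3.58.1 (R 4.3.3) on all arrays with a coefficient for each group (4 residual and 3.69 prior degrees of freedom), and p-values were adjusted over all tested probe sets of a comparison. With 2 arrays a group, the smallest two-sided p of an exact permutation test is 0.333. Precision is limited by the number of arrays, and the median half-width of a 95% confidence interval was 0.24.

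The members and lists were chosen with earlier results of these data known. From each list, up to 3 called rises and 3 called falls per compound were named, and for each called member the 3 genes of most like pattern. The fit was tested on simulated data. Figures were drawn with Python 3.11.15 and matplotlib 3.10.9. Alternatives covered the filter, the prior, scaling, the choice of probe set, the replicate number, the 4 arrays compared and each array left out.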

Additional observations from a re-analysis of the deposited data

How the results depend on the processing

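Against vehicle, the number of members called stayed at 5 to 7 with largazole, 6 or 7 with SAHA and 4 to 6 with FK228 over all alternatives, the lowest for largazole and FK228 when 1 array was left out. When _x_at and _s_at probe sets were dropped, BAX and PMAIP1 had no probe set, and BID changed by -1.70 with largazole, -1.74 with SAHA and -1.67 with FK228. The mean of all probe sets gave -1.49 for BID with FK228. BMF was not tested under the stricter filter. Between largazole and FK228 the count of 0 became 3 under the stricter filter and 3 with an intensity trend and robust prior (MCL1, PMAIP1 and BIK in each), 1 at equal ribosomal protein medians (MCL1) and 1 when all probe sets of a gene were averaged (PMAIP1), and it stayed at 0 with any array left out. The adjusted p of MCL1 was 0.0169 under the stricter filter, 0.00480 with the trend and 0.0450 at equal ribosomal protein medians. The stricter filter tested fewer probe sets (15013). Over all tested probe sets, 2385 were called between largazole and FK228, against 1058 without a filter, 3741 with the trend, 3587 with the replicate block, 1240 with only the 4 arrays compared and 191 to 1991 with 1 array left out. Why the counts differed between settings was not tested, for the stricter filter or for any other.

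Same-numbered arrays deviated together weakly (r from 0.13 to 0.27 over 6 pairs of groups), but with 2 numbers this does not establish pairing. With replicate number as a replicate block, 1 member was called between largazole and FK228 (MCL1, adjusted p = 0.0346), and the counts against vehicle stayed at 7, 7 and 6 for largazole, SAHA and FK228.

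The signs that turned all belonged to uncalled values near 0. BIK with FK228 was at 0.0059 at equal ribosomal protein medians. For largazole minus FK228, BCL2L11 was at 0.020 after a further quantile normalization, 0.11 with the mean of all probe sets, 0.0058 without largazole replicate 2 and 0.11 without FK228 replicate 2 (-0.11 to 0.11 over all arrays left out). BAK1 was at -0.019 at equal ribosomal protein medians, -0.025 without largazole replicate 2 and -0.0091 without FK228 replicate 2 (-0.025 to 0.071). BID was at 0.017 with the mean of all probe sets, and BMF at 0.064 without FK228 replicate 2 (-0.28 to 0.064). The scalings moved the median of all probe sets by at most 0.061.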

Other observations

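The 2 probe sets of these genes that stayed under the filter were not tested. The dimmest BCL2L1 probe set was at 4.09 and 3.79 with largazole, 4.13 and 4.07 with SAHA, and 4.27 and 3.87 with FK228, against 4.31 and 4.34 with vehicle. The dimmest MCL1 probe set was at 4.26 and 4.11 with largazole, 4.02 and 4.22 with SAHA, and 4.24 and 4.28 with FK228, against 3.73 and 3.73 with vehicle. Every array of both lay under the filter level of 4.49.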
